A study of Mus musculus with 304 samples.

Results

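Granule cells that had received a GFP virus differed widely in the expression of immediate early genes, and the cells at both ends of that range are described here across all other genes. The 59 GFP cells that passed the authors' quality control and had counts were ranked by the summed level of Fos, Arc, Egr1, Junb and Nr4a1. The 19 highest cells (high cells) were set against the 19 lowest cells (low cells), and the 21 cells between them (middle cells) entered neither group. The series holds 304 labelled samples, of which 291 have counts. The members were thus chosen by measured levels of the same cells, so every difference between high and low cells is a description and none was tested.

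Each library came from the cytosol of 1 mouse dentate granule cell, drawn into a patch pipette (Patch-seq). All 59 cells came from GFP_Control tissue, taken 1 month after injection of an adeno-associated virus (AAV) that carried GFP, so high and low cells share the virus, the reporter and the interval. The labels state neither the age, sex and strain of the mice nor the promoter of the virus. No label names an animal, so the cells stand as 1 sample.

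Dentate granule cells receive the main cortical input to the hippocampus, fire sparsely, and send mossy fibres to area CA3. Immediate early genes are transcribed within minutes of synaptic or other strong stimulation, without new protein synthesis. Calcium entry and the ERK kinase cascade act on the factors CREB and SRF, which sit on their promoters. The first wave encodes transcription factors (Fos and Jun families, Egr and Nr4a families, Npas4) together with the cytoskeletal protein Arc. A later wave encodes secreted, synaptic and signalling proteins, and feedback inhibitors such as dual-specificity phosphatases and Sprouty proteins damp the ERK cascade.

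Levels below are in CPM, a gene's reads scaled by all reads in genes of the cell or of the summed cells. The summed level of the 5 ranking genes was 11907.5 CPM at the lowest, 15916.6 CPM at the median and 32071.3 CPM at the highest in high cells. The same sum ran from 0.238 CPM through a median of 4102.71 CPM to 6522.04 CPM in low cells. Cells on either side of the limits were close, with 11907.5 CPM in the last high cell and 11395.2 CPM in the first middle cell, and 6855.32 CPM in the last middle cell and 6522.04 CPM in the first low cell. The limits therefore divide a continuous range of cells and do not mark separate classes.

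Single ranking genes overlapped between the groups even though their sum could not. Fos, a partner of Jun proteins in the AP-1 factor, had a median of 5716.55 CPM in high cells and 1176.08 CPM in low cells. Arc had a median of 1917.18 CPM in high cells and was not read in most low cells, where the median was 0 and the highest value 1403.25 CPM. Egr1, a zinc finger factor, had a median of 3580.39 CPM in high cells and 644.961 CPM in low cells. Over the 59 cells the rank correlation between 2 of the 5 genes ran from 0.25 (Junb with Nr4a1) to 0.50 (Fos with Arc).

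**Figure D1:**
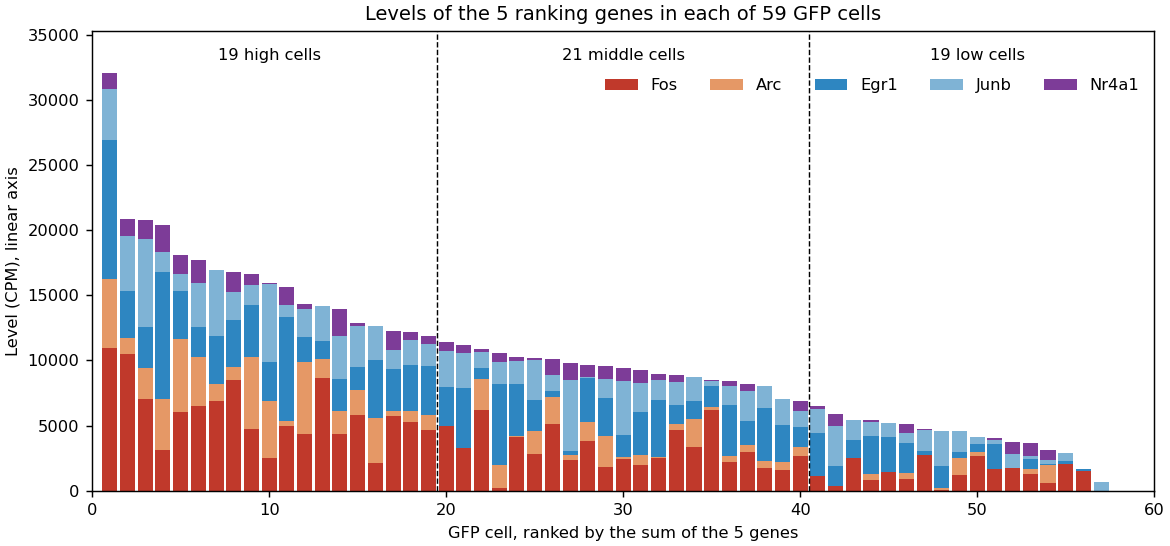
Stacked levels of Fos, Arc, Egr1, Junb and Nr4a1 in each of 59 GFP cells (y axis, CPM, linear), with cells ordered by their sum (x axis) and dashed lines at the limits of the groups. The sum declines without a step at the limits, and the lowest 3 cells have 687, 0.595 and 0.238 CPM of the 5 genes.

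Library depth and granule cell markers overlapped widely between the ends. Reads per cell had a median of 4160210 in high cells and 3493480 in low cells, and the sum of the 5 genes had a rank correlation of 0.16 with reads. After thinning each cell to 500000 reads, the median number of genes was 3328 in high cells (18 cells) and 3679 in low cells (19 cells). The 34 granule cell markers together had a median of 10386.6 CPM in high cells and 9188.34 CPM in low cells. This list includes Btg2, which is also counted below as an early transcription factor. By summed counts the list had 10366 CPM in high and 9959.8 CPM in low cells, of which Btg2 gave 1917 and 639.7 CPM. The higher level of the list in high cells therefore rests on Btg2. Calb1, the calcium buffer calbindin, was read in 19 high and 17 low cells, and Prox1, the factor that keeps granule cell identity, in 16 high and 10 low cells. Of a few markers picked to define other cell types, Cx3cr1, P2ry12, Gfap, Gja1, Slc32a1, Pvalb, Mog, Mobp and Cldn5 were each under 0.3 CPM over the cells of either group. Above that level in high cells were C1qa (43.4 CPM), Mag (7.20 CPM) and Pecam1 (0.501 CPM), and in low cells Tmem119 (8.09 CPM), C1qa (6.63 CPM), Sst (3.69 CPM), Gad2 (2.88 CPM), Pecam1 (0.538 CPM) and Aqp4 (0.492 CPM). Dsp, a granule cell marker, was read in 1 high and 3 low cells. The full lists of other cell types held more. Interneuron markers had a median of 842.082 CPM in high and 828.522 CPM in low cells, with Gad1 up to 1797.74 and 1470.37 CPM. The medians of astrocyte markers were 279.553 and 482.898 CPM, and those of oligodendrocyte markers 9.42 and 145.748 CPM.

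The libraries titled IDS107 and IDS21 stood furthest from the other GFP cells in glial markers. The low cell titled IDS107 had 568993 reads, of which 10.5% were mitochondrial. It had 16590.7 CPM of astrocyte markers, 5949.11 CPM of oligodendrocyte markers and 1444.66 CPM of granule cell markers. The high cell titled IDS21 had 10495.1 CPM of microglia markers, against a median of 3.56 CPM in high cells and 18.4 CPM in low cells. The low cell titled IDS106 had 4054.7 CPM of astrocyte and 3766.92 CPM of oligodendrocyte markers, and the high cell titled IDS104 had 2802.51 and 1587.13 CPM. The medians of these 2 lists were 482.898 and 145.748 CPM in low cells and 279.553 and 9.42 CPM in high cells. Results that shift without IDS107 or IDS21 are given both ways below, and IDS106 and IDS104 were not left out on their own. The cells carry titles in 3 number ranges, with 9 high and 5 low cells at IDS1 to IDS24, 7 high and 9 low cells at IDS74 to IDS95, and 3 high and 5 low cells at IDS101 to IDS120. The labels do not say whether these ranges are animals, days or batches, and ratios are also given within each range.

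Of 8351 measured genes outside the 5 ranking genes, 21.6% were at least 2-fold higher and 22.7% at least 2-fold lower in high cells by CPM of summed counts. A stricter pattern was 2-fold by summed counts, by the mean over cells and in thinned cells, with 1 sign within all 3 title ranges. That pattern held for 5.83% of measured genes in the higher and 8.03% in the lower direction. The median log2 ratio of all measured genes was -0.04, on the scale log2(CPM + 1) as for every log2 ratio below.

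Promoters of the ranking gene Fos and of 4 other genes higher in high cells are printed because CREB binds the cyclic AMP response element (CRE), whose full form is TGACGTCA and whose short core is TGACG. Each line is 250 bases before to 50 bases after the RefSeq start (GRCm38.p6), read 5′ to 3′ on the gene's strand. Capitals mark each short core on either strand (TGACG or CGTCA), including those that overlap to form the full element.
Fos, chr12:85473640-85473939 (+): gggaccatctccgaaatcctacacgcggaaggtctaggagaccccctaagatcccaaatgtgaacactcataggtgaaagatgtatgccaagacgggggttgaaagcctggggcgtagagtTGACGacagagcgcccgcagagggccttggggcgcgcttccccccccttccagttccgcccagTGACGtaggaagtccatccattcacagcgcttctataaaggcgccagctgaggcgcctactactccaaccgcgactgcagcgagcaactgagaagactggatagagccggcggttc
Btg2, chr1:134079106-134079405 (-): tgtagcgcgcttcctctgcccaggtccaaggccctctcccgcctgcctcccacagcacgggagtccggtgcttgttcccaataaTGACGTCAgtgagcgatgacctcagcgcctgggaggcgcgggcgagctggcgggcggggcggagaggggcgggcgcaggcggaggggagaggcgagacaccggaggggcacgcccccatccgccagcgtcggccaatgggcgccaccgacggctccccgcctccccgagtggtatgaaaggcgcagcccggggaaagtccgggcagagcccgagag
Ppp1r15a, chr7:45526219-45526518 (-): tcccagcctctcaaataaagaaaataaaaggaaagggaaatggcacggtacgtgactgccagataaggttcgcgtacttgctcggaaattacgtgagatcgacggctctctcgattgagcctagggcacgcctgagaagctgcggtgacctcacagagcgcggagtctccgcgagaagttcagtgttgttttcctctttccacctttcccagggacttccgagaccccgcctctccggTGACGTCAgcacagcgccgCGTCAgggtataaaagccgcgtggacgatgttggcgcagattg
Egr4, chr6:85513540-85513839 (-): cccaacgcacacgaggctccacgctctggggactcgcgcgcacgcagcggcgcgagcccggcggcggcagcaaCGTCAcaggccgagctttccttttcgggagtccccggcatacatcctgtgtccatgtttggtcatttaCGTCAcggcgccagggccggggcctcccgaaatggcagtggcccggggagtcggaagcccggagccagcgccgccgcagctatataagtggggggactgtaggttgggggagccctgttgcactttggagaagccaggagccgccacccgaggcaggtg
Fosb, chr7:19309996-19310295 (-): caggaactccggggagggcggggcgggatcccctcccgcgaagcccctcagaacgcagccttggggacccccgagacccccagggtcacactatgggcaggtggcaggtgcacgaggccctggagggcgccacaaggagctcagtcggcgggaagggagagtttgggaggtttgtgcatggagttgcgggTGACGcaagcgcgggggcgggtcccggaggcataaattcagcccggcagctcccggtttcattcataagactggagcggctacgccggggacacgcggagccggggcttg

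The full element began at -166 in the Btg2 window and at -12 in the Ppp1r15a window, counted from the start, and short cores began at -129 and -66 in the Fos window. The full element occurred in 1.79% of 32851 RefSeq windows of this length, in 3.32% of the windows of measured genes and in 10.8% of the 65 windows of measured members of the lists of immediate early transcription factors and activity-induced effectors. The short core occurred in 20.8%, 32.9% and 58.5% of the same windows. Of the 11 members of these lists that met the stricter pattern in the higher direction, 9 had a window. In 7 of them the short core was found, and Btg2 and Ppp1r15a held the full element. Jun and Gadd45g had a window without the core and are not printed, while every printed window holds it. The AP-1 site TGAGTCA and the CArG box, which SRF binds, were in none of the 9 windows. Both are rare, in 3.19% and 1.3% of the windows of measured genes, so none among 9 windows is close to that background. In the 65 windows of both activity lists, which come from 45 genes, they occurred in 3.08% and 7.69%. The windows with a CArG box came from only 2 of these genes, against 100 of the 6338 measured genes with a window. These matches describe letters in the windows, and binding was not measured.

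The transcription factors of the early wave were, as a list, higher in high cells, and single members differed in how regularly they were so. Of 33 listed factors outside the ranking genes 26 were measured, 18 higher and 8 lower in high cells, against 48.8% and 51.2% of all measured genes. At least 2-fold higher were 9 (21.6% of all measured genes) and at least 2-fold lower 3 (22.7%), and the median log2 ratio was 0.79. The stricter pattern held for 7 of them in the higher direction (Npas4, Klf2, Btg2, Atf3, Fosb, Egr4 and Jun) and for 0 in the lower, against 5.83% and 8.03%. Summed over the 26 factors, the level per cell had a lowest value of 3932.09 CPM, a median of 10377.9 CPM and a highest value of 20181.2 CPM in high cells, against 196.845, 6301.7 and 10690.2 CPM in low cells. The groups overlapped, and the median high cell lay near the top of the low cells. Middle cells had 5150.54, 9825.91 and 17668.9 CPM, so their median was close to that of high cells.

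Btg2, an antiproliferative cofactor induced by activity and by p53, ran from 0 through a median of 1938 CPM to 4874 CPM in high cells and from 0 through 253.6 CPM to 2116 CPM in low cells. Only 1 low cell exceeded the median of the high cells. Over summed counts Btg2 had 1917 CPM in high cells (95% counting interval 1907 to 1927) and 639.7 CPM in low cells (633.5 to 645.9), 3.00-fold higher in high cells.

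Egr4, a zinc finger factor of the Egr family, was read in all 19 high cells, from 69.5 CPM through a median of 2316 CPM to 9313 CPM, and in 15 low cells, from 0 through 1108 CPM to 5097 CPM. The low cells reached well into the high range, and 5 of them exceeded the high median. The median of the middle cells, 2434 CPM, also lay above it. Summed counts gave 3082 CPM in high cells (3070 to 3095) and 1392 CPM in low cells (1383 to 1401), 2.21-fold higher in high cells. The log2 ratio was 1.39, 0.88 and 1.01 within IDS1 to IDS24, IDS74 to IDS95 and IDS101 to IDS120, a narrow spread among the members.

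Fosb, the Fos relative whose spliced form accumulates as delta FosB, was read in all 19 high cells, with a lowest value of 12.4 CPM, a median of 273.3 CPM and a highest value of 1131 CPM. In low cells it ran from 0 through 73.8 CPM to 770.4 CPM, and 4 low cells had no read. Over summed counts it had 315.7 CPM in high cells and 124.3 CPM in low cells, 2.54-fold higher in high cells, but the middle cells were highest with 452.7 CPM.

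Jun, the AP-1 partner of Fos, had a median of 638 CPM (range 0 to 2786) in high cells and 25.6 CPM (range 0 to 1511) in low cells. Its summed level was 2.21-fold higher in high cells, and 4 low cells exceeded the high median. Atf3, a stress-induced factor, was on in fewer cells, at or above 100 CPM in 11 high and 6 low cells, and its summed level was 911.9 CPM in high cells and 306.7 CPM in low cells. For both genes the middle cells lay between, with 649.3 CPM of Jun and 619.3 CPM of Atf3.

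Npas4, a factor induced by calcium entry almost only in neurons, reached 100 CPM in 10 high and 2 low cells. It ran from 0 through a median of 126.8 CPM to 1310 CPM in high cells and from 0 through a median of 0 to 617 CPM in low cells. By summed counts it was 6.18-fold higher in high cells, at 247.7 CPM in high and 40.1 CPM in low cells, and a single low cell gave 65.4% of the level in low cells. Klf2, a Krüppel-like factor, reached 100 CPM in 9 high and 2 low cells. Its log2 ratio was 5.44 within IDS1 to IDS24 but only 0.06 and 0.36 within the other ranges.

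Several other early factors did not follow the ranking genes regularly. Egr3 had 4.34 CPM in high cells and 12.9 CPM in low cells, and Ier2 had 3.40 CPM in high cells, from a single cell, and 46.4 CPM in low cells, from 4 cells. Csrnp1 had 3.67 CPM in high cells and 11.1 CPM in low cells. All 3 were read in few cells, and the ratios of Egr3 and Csrnp1 changed sign under other choices of cells. Nr4a2, a relative of the ranking gene Nr4a1, had a log2 ratio of 0.67 and was highest in middle cells, at 897.6 CPM, against 485.8 CPM in high cells and 304.4 CPM in low cells. Egr2 was 2.54-fold higher in high cells over all cells, with log2 ratios of 3.33, -1.77 and 0.02 within the 3 title ranges.

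**Figure D2:**
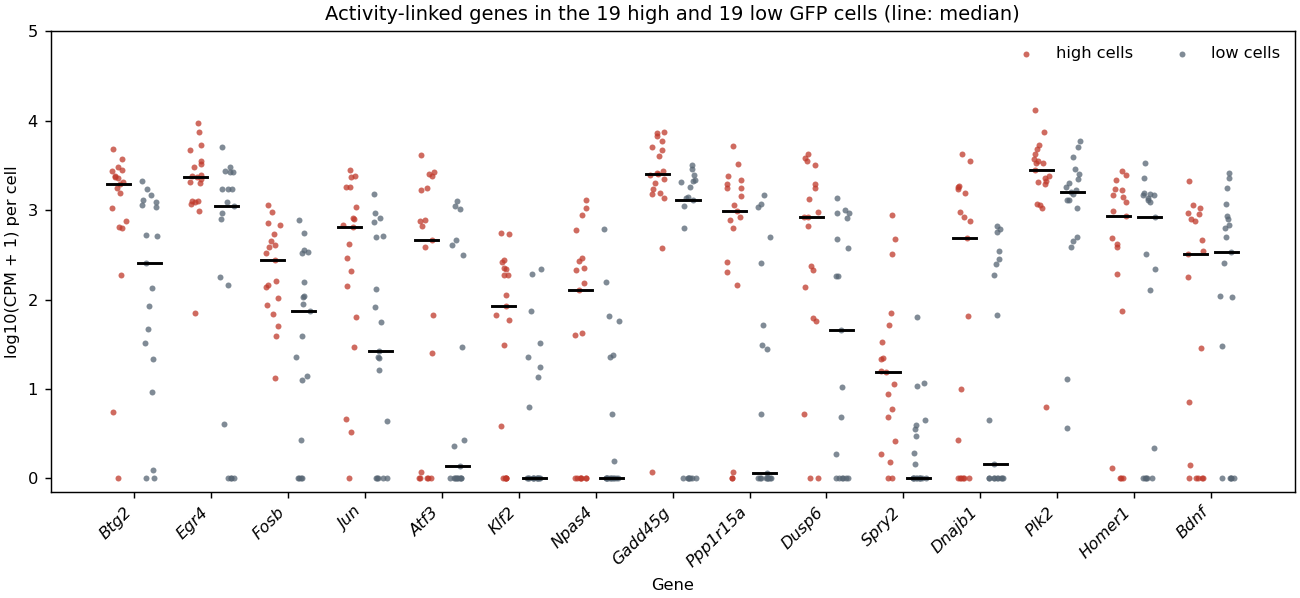
Level of 15 genes in each of the 19 high cells (red, left) and 19 low cells (grey, right), as log10(CPM + 1), with black lines at the medians. High and low cells overlap for every gene, and many low cells lie at 0 for Ppp1r15a, Npas4 and Klf2, while Homer1 and Bdnf have medians of similar height in both groups.

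The later wave was split. Of 53 activity-induced effectors 35 were measured, 18 higher and 17 lower in high cells, close to the 48.8% and 51.2% of all measured genes, and their median log2 ratio was 0.16. At least 2-fold higher were 10 and at least 2-fold lower 4, against 21.6% and 22.7% of all measured genes, and 4 met the stricter pattern in the higher direction (Nptx2, Rasd1, Ppp1r15a and Gadd45g) with 0 in the lower, against 5.83% and 8.03%.

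Ppp1r15a (GADD34), which restarts translation after stress by directing a phosphatase to eIF2 alpha, ran from 0 through a median of 966.3 CPM to 5276 CPM in high cells. In low cells it ran from 0 through 0.147 CPM to 1491 CPM, with 9 low cells at 0 and 3 above the high median. Over all cells of a group it had 1307 CPM in high cells (1299 to 1316) and 233.9 CPM in low cells (230.2 to 237.7), 5.59-fold higher in high cells. Middle cells lay between at 687 CPM. The log2 ratio was 2.06 and 2.99 within IDS1 to IDS24 and IDS74 to IDS95, but only 0.36 within IDS101 to IDS120.

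Gadd45g, a small stress-response protein linked to DNA demethylation, was read in 19 high cells, from 0.179 CPM through a median of 2541 CPM to 7517 CPM, and in 12 low cells, from 0 through 1298 CPM to 3170 CPM. The groups overlapped, with 2 low cells above the high median and 7 low cells at 0. Its summed level was 3465 CPM in high cells (3452 to 3478) and 1079 CPM in low cells (1071 to 1087), 3.21-fold higher in high cells. Plk2, a kinase of synaptic downscaling, was read in all 38 cells and was 2.32-fold higher in high cells by summed counts, but its log2 ratio was 0.87 by the mean over cells.

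Nptx2, a secreted pentraxin that gathers AMPA receptors, was read in 7 high and 2 low cells, with 48.3 CPM in high cells and 0.477 CPM (0.324 to 0.677) in low cells. Rasd1, a Ras-like protein induced by dexamethasone and by activity, had 231.3 CPM in high cells and 28.5 CPM in low cells, and 1 cell gave 63.7% of the level in high cells. Both therefore rest on few cells.

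The best known effectors showed little difference between the groups. Homer1, whose short form is induced by activity and uncouples glutamate receptors, ran from 0 through a median of 853.8 CPM to 2702 CPM in high cells and from 0 through 844 CPM to 3389 CPM in low cells. Bdnf, the neurotrophin, ran from 0 through 320.6 CPM to 2097 CPM in high cells and from 0 through 340.6 CPM to 2593 CPM in low cells. Scg2, Nrn1 and Ptgs2 had log2 ratios of 0.33, -0.31 and -0.53. Counts per gene do not separate the short form of Homer1 or the promoter-specific transcripts of Bdnf.

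Feedback inhibitors of the ERK cascade included the gene with the highest correlation with the ranking genes. Spry2, a Sprouty protein, was read in 17 high cells, from 0 through a median of 14.6 CPM to 877.1 CPM, and in 9 low cells, from 0 through 0 to 62.5 CPM. Its summed level was 111.6 CPM in high cells and 6.95 CPM (6.33 to 7.62) in low cells, a log2 ratio of 3.82, and 1 high cell gave 45.7% of the level in high cells. Dusp6, a phosphatase of ERK, had a median of 843.5 CPM (range 0 to 4252) in high cells and 44.9 CPM (range 0 to 1354) in low cells, and was 3.78-fold higher by summed counts. Its log2 ratio was 2.01, 2.09 and 0.93 within the 3 title ranges.

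Other members went the other way. Dusp8, which acts mainly on JNK and p38, had 48.3 CPM in high cells and 238 CPM in low cells, with a log2 ratio of -2.28 that turned to 5.94 within IDS101 to IDS120. Of 13 measured phosphatase, Sprouty and Spred genes, 6 were higher and 7 lower in high cells, 5 and 3 of them at least 2-fold, where the background was 21.6% and 22.7%. The list's median was -0.22, and it was 0.16 by the mean over cells and 0.29 without the low cell IDS107. In the calcium, CREB, SRF and ERK pathway, which acts before transcription, 49 genes were measured. Of these, 32 were higher and 17 lower in high cells, against 48.8% and 51.2% of all measured genes. Their median was 0.16, with 7 and 5 members past 2-fold, below the background of 21.6% and 22.7%. Ep300, a histone acetyltransferase that CREB recruits, was lower in high cells, at 1.57 CPM in high and 93.9 CPM in low cells, and was read in 3 high and 10 low cells. Elk1, an SRF partner, had 44.6 CPM in high cells and 2.81 CPM in low cells, where it was read in 1 cell, and its log2 ratio of 3.58 turned to -0.33 within IDS1 to IDS24.

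**Figure D3:**
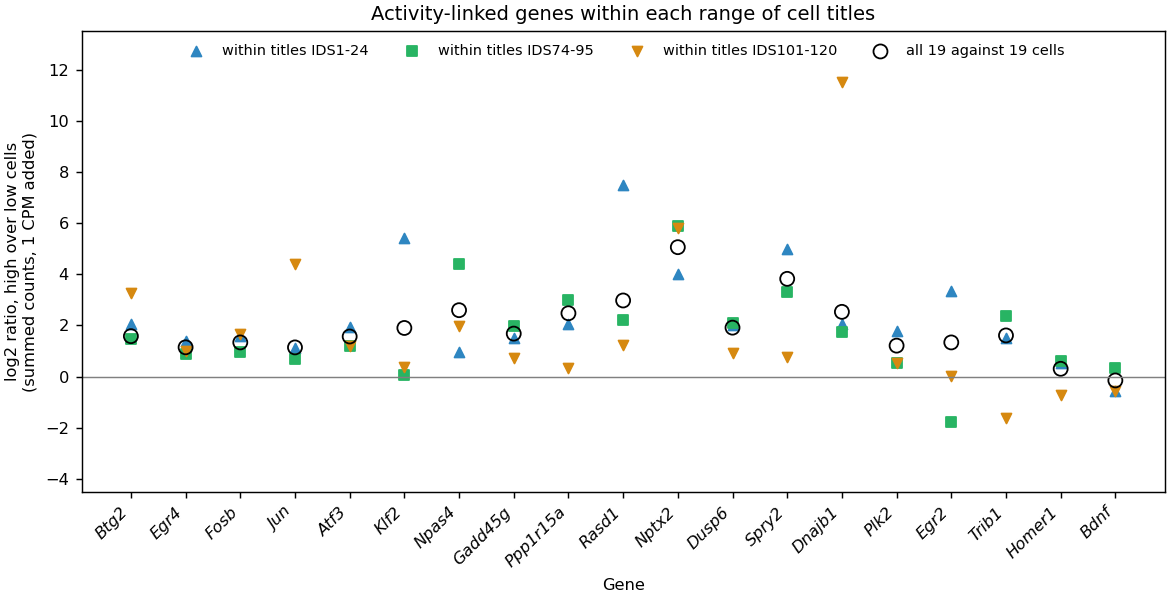
Log2 ratio (high over low cells, summed counts, 1 CPM added) of 19 genes within each of 3 ranges of cell titles (filled symbols) and over all 19 against 19 cells (open circles). Btg2, Egr4, Fosb and Atf3 lie above 0 within each range, while Egr2, Trib1, Homer1 and Bdnf have values on both sides of 0.

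Chaperone genes held a few high values in an otherwise mixed list. Of 36 measured genes of the heat shock and unfolded protein responses, 21 were higher and 15 lower in high cells. The shares of all measured genes were 48.8% and 51.2%, and the median of the list was 0.30. Past 2-fold were 5 in each direction, a smaller share than the 21.6% and 22.7% of all measured genes. Dnajb1, a co-chaperone of HSP70 and the member of this list that met the stricter pattern, had a median of 492.1 CPM (range 0 to 4197) in high cells and 0.459 CPM (range 0 to 667) in low cells, and was 5.81-fold higher by summed counts. The inducible HSP70 genes Hspa1a and Hspa1b, which are near-identical copies, so that their split of reads is uncertain, were read in 5 high cells each, and in 5 and 3 low cells.

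Genes of the energy and translation machinery lay slightly lower in high cells. Of 80 measured cytosolic ribosomal protein genes 21 were higher and 59 lower in high cells, against 48.8% and 51.2% of all measured genes. Their median log2 ratio was -0.35. None was 2-fold higher and 10 were 2-fold lower, against 21.6% and 22.7% of all measured genes, so fewer members than the background lay past 2-fold. The median was -0.16, -0.69 and 0.11 within the 3 title ranges, so the sign was not shared. Of 73 measured nuclear genes of the respiratory chain 19 were higher and 54 lower, with a median of -0.38, and again few members lay past 2-fold (1 higher and 10 lower).

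Within these lists single members differed more. Uqcrc1, a core subunit of complex III, was read in 7 high and 17 low cells, with a median of 0 CPM (highest 1037) in high cells and 686 CPM (highest 5571) in low cells. Cox6c, a subunit of complex IV, had a median of 236 CPM in high cells and 637.5 CPM in low cells, where 14 cells exceeded the high median. Rpl7 had 169.7 CPM in high cells and 443.4 CPM in low cells, and Rps27a, a fusion of ubiquitin and a ribosomal protein, had 78.98 CPM in high cells and 192.9 CPM in low cells. The 9 measured genes of the mitochondrial genome had a median log2 ratio of -0.78, and -0.27 without the low cell IDS107, and the mitochondrial share of reads had a median of 0.236% in high cells and 0.274% in low cells. The part of these shares in the lower levels was not tested.

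Lists of neuronal genes outside the activity programme had medians near 0 by summed counts. The median log2 ratio was -0.05 for 18 glutamate receptor genes, -0.04 for 12 GABA receptor genes, -0.10 for 53 ion channel genes and -0.06 for 45 genes of vesicle fusion and release. By the mean over cells the glutamate receptors had -0.40 and the ion channels -0.29, and within IDS101 to IDS120 the glutamate receptors had -1.84. The 33 measured granule cell markers had 16 higher members, Btg2 among them, and 17 lower members, close to the 48.8% and 51.2% of all measured genes. Their median was -0.04. Single members still lay far apart between the groups. Cacna1i, a T-type calcium channel, was read in 1 high and 4 low cells. Cpe, which trims peptide hormone precursors, had 201.8 CPM in high cells and 572.7 CPM in low cells, but a log2 ratio of 0.89 within IDS1 to IDS24, while Pam, which amidates neuropeptides, had 170.6 CPM in high cells and 44.9 CPM in low cells. Id2, the gene that the other virus of the study carried, had 104.2 CPM in high cells (12 cells) and 51.1 CPM in low cells (7 cells), with log2 ratios of 5.40, 1.07 and -2.46 within the 3 title ranges.

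Markers of other cell types gave small numbers of measured genes. The 4 measured of 19 microglia markers had a median log2 ratio of 2.51, and 0.99 without the high cell IDS21. Their summed level, over all 19, ran from 0 to 10495.1 CPM in high cells and from 0 to 1681.92 CPM in low cells. The 9 measured of 18 astrocyte markers had a median of -0.65, which turned to 0.13 by the mean over cells, and summed levels of 8.47 to 2802.51 CPM in high cells and 3.52 to 16590.7 CPM in low cells. Their part in the other differences was not tested, and without IDS107 or IDS21 the early transcription factors kept medians of 0.78 and 0.68.

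**Figure D4:**
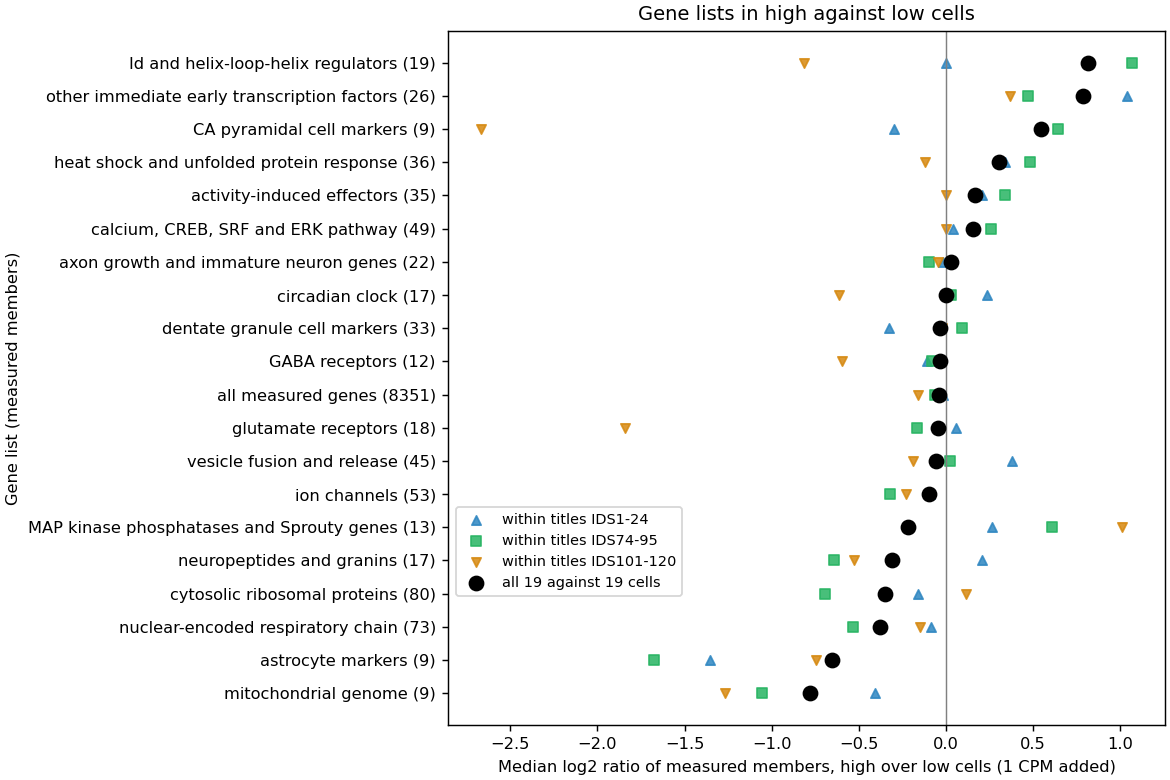
Median log2 ratio (high over low cells, 1 CPM added) of the measured members of each list with at least 9, over all cells (black) and within each title range (colours), with the number of measured members in parentheses. The early transcription factors lie above 0 throughout, and lists of channels, receptors and granule cell markers lie near 0 over all cells.

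The genes with the largest ratios by rule were mostly outside the activity programme, and the 12 highest were each read in 8 to 17 of the 19 high cells. The 12 highest were Coq6, Ddx25, Ttc33, St7l, Spry2, Nono, Ppp6r1, Inpp5j, Mfn2, Tmem151a, Elac2 and Dtd1. Coq6, an enzyme of ubiquinone synthesis, was read in 9 high and 2 low cells, with 126.6 CPM in high cells and 0.308 CPM (0.188 to 0.475) in low cells. Ddx25, a helicase best known in testis, was read in 8 high and 0 low cells. Its summed level was at least 2071-fold higher in high cells, against a floor of 3 counts over all low cells. That floor covers the counting of reads only and not the spread between cells, and 11 high cells had no read of Ddx25 either. Mfn2, a mitofusin of mitochondrial fusion, was read in 10 high and 4 low cells, with 426.5 CPM in high cells and 47.8 CPM in low cells. Ppp6r1 was read in 9 high and 9 low cells, and Elac2 in 9 high and 10 low cells. Their correlations with the sum of the ranking genes were only 0.08 and -0.02 in GFP cells, so their ratios rest on the level in a few cells.

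The 12 lowest were Serpine2, Cinp, Sppl3, Mon2, Tmem189, Ep300, Med6, E2f5, Dnajc10, Notch2, Cep170 and Pex3. Mon2, a protein of endosome to Golgi traffic, was read in 1 high and 13 low cells and had the lowest correlation with the ranking genes, -0.56. Its summed level was 1.58 CPM in high cells and 131.1 CPM in low cells. Serpine2, a secreted protease inhibitor, was read in 3 high and 8 low cells, with 0.0396 CPM (0.00816 to 0.116) in high cells and 95.1 CPM (92.7 to 97.5) in low cells. E2f5, a cell cycle factor, was read in 9 high and 13 low cells, at no more than 5.21 CPM in high cells and up to 321.1 CPM in low cells.

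Cells of the other groups were not used in the ranking, and the same sum of 5 genes was followed in them. Its median was 9413 CPM in the 59 GFP cells, 7438 CPM in 71 Id2 cells (the virus carrying Id2, same interval), 6464 CPM in 31 control cells of mice without an injection, 2982 CPM in 58 cells labelled as ipsilateral at 1 day after kainate (2 contralateral cells were left out) and 2545 CPM in 29 cells 14 days after kainate. Rank correlations of each gene with this sum are given as descriptions over cells of 1 group, which share the level of the other genes in CPM. The sum itself had a correlation with reads per cell of 0.12, -0.10, -0.18 and 0.12 in the Id2, control, day 1 and day 14 cells.

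Most of the 11 activity genes of the stricter pattern had positive correlations with the sum in these other cells too. Above 0 were 10 in Id2, 11 in control, 11 in day 1 and 10 in day 14 cells, with the exceptions of Rasd1 in Id2 cells (-0.15) and Nptx2 in day 14 cells (-0.07). Their median correlation was 0.40 in GFP cells, which set the pattern, and 0.28 in Id2, 0.44 in control, 0.37 in day 1 and 0.15 in day 14 cells, while the medians of all measured genes were 0.04, -0.04, -0.03 and -0.04 in the last 4 groups. A correlation of at least 0.3 was reached by 5 of the 11 in Id2 cells, 7 in control cells, 8 in day 1 cells and 4 in day 14 cells, against 1.47%, 2.9%, 0.948% and 3.16% of all measured genes. In GFP cells 8 of the 11 reached it, against 1.15%, but those cells chose the 11 genes, so this count is not independent of the choice.

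Egr4 had the highest correlation of all 8347 measured genes in Id2 cells, 0.61, and of all 8336 in day 1 cells, 0.575. Btg2 had the highest of 8306 genes in control cells, 0.73, followed by Fosb with 0.69. Klf2 was next to Egr4 in Id2 cells with 0.51. Gadd45g lay between 0.47 and 0.52 in GFP, Id2, control and day 1 cells. In day 14 cells Egr4 and Fosb had only 0.20 and 0.11, while Btg2, Atf3, Jun and Gadd45g had 0.40, 0.37, 0.31 and 0.31, and Plk2 had 0.47. That group has only 29 cells, and its highest sum was 6098 CPM. The 5% and 95% limits of all measured genes were -0.33 and 0.26 there.

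The genes with the largest ratios in GFP cells did not follow the sum elsewhere. The 12 highest by ratio had a median correlation of 0.33 in GFP cells, which chose them, but 0.08 in Id2, 0.01 in control, -0.06 in day 1 and -0.06 in day 14 cells. A correlation of 0.3 was reached by 0 of the 12 in Id2, control and day 1 cells and by Mfn2 alone, with 0.44, in day 14 cells. Spry2, with 0.56 the highest gene in GFP cells, had 0.25, 0.09, -0.05 and -0.07 in Id2, control, day 1 and day 14 cells. The 12 lowest by ratio had medians between -0.05 and 0.00 in the same 4 groups. Bdnf and Homer1 had values between -0.14 and 0.27 there.

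**Figure D5:**
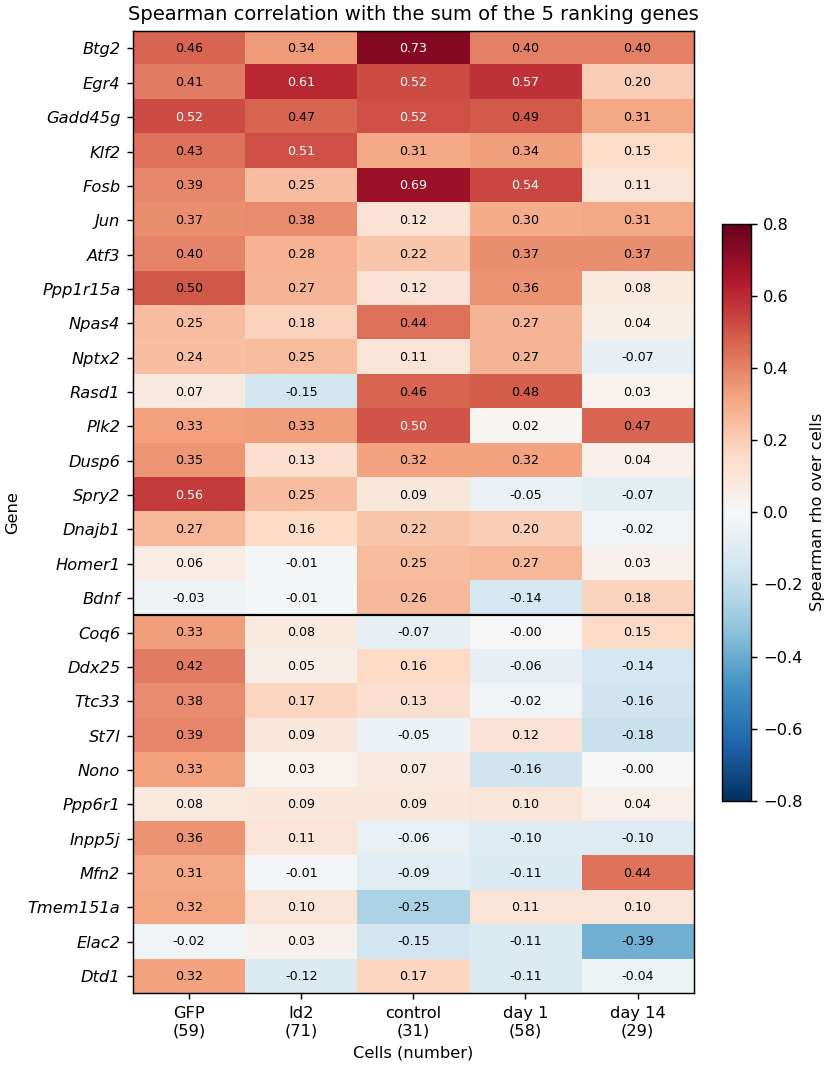
Spearman correlation over cells of each gene with the summed CPM of the 5 ranking genes, in 5 groups of cells (columns, number of cells in parentheses). Rows above the line are activity-linked genes and rows below it are other genes among the 12 highest by ratio in GFP cells. Egr4, Btg2 and Gadd45g are red in the first 4 columns, while rows below the line lie between -0.39 and 0.44 outside the GFP column, with both ends in day 14 cells.

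The lowest 3 cells of the ranking had 5420504, 3362656 and 4193710 reads and 8788.85, 12364 and 10726.1 CPM of granule cell markers, with 687, 0.595 and 0.238 CPM of the ranking genes, which placed them there. Among single markers, Prox1 had 724.84, 0 and 0 CPM in these cells, and Calb1 had 378.378, 1552.34 and 2450.1 CPM. Of the 26 measured early factors outside the ranking genes 1, 2 and 2 reached 100 CPM. None of the 3 cells had a read of Npas4, Atf3 or Ppp1r15a. The first of them still had 1096.21 CPM of Gadd45g, 445.5 CPM of Plk2 and 130.4 CPM of Jun, and the next had 178.7 CPM of Egr4. In high cells the number of these factors at 100 CPM ran from 5 through a median of 11 to 18, in middle cells from 6 through 13 to 17, and in low cells from 1 through 9 to 16, so the middle cells had the highest median. The highest cell had 32071.3 CPM of the ranking genes, with 7553.36 CPM of Egr4, 5953.46 CPM of Gadd45g and 7484.31 CPM of Plk2.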

How the data were processed

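Per the submitters' processing notes, reads were handled with Trimmomatic, STAR and featureCounts on GRCm38, without versions; no source used here states the strand or the rule behind the quality labels. The authors deposited whole-number counts per gene for 22800 genes in 291 cells, and a scaled signal for 252 cells. The names of both deposited tables point the other way, and units were settled on values: the scaled signal equals counts times 1 factor in all 252 cells. Libraries were prepared with Nextera XT, per the labels. Of 61 GFP samples labelled as passing, 2 had no column and were not analysed here. The highest Pearson r of log2(CPM + 1) between 2 GFP cells was 0.39.

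For each group, counts of its cells were added up and scaled to CPM. Measured genes had reads in 20% of either group's cells and 5 CPM in either group. Ratios add 1 CPM, and folds in the text use CPM alone. Thinning to 500000 reads left out 1 high cell. Exact Poisson intervals (95%) cover counting error of reads only, since no molecular identifiers are named, and not the spread between cells or animals. Reads per cell ran from 489562 to 5895900 in high cells and from 568993 to 6826840 in low cells. With cells of 1 sample there is no test, p-value or standard error. Named genes were the 12 highest and 12 lowest by the smallest of 3 ratios (thinned cells, mean over cells and summed counts) with 1 sign in each title range, a read in 40% of thinned cells of the higher group and no cell above 50% of its level, the 8 highest and 4 lowest by correlation, members of the 26 lists, and markers; Id2 was added as the study's gene. The members and lists were chosen with earlier results of these data known. Some genes under this rule are given by count alone or not reported here. Promoter windows are RefSeq sequences. Python 3.11.15, pandas 2.3.3, numpy 2.4.6 and SciPy 1.17.1 were used. The calculation of the ratios was checked on simulated Poisson counts that had no spread between cells. That check covers the arithmetic only, and not how far ratios vary with the cells chosen.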

Additional observations from a re-analysis of the deposited data

How the results depend on the processing

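Over 18 alternatives to the choices behind the ratios, the counts past 2-fold stayed within 1.5 times of the 1800 and 1892 reported, except with genes of any level (3360 higher and 3619 lower), within IDS1 to IDS24 (2751 and 3104), within IDS74 to IDS95 (2862 lower) and within IDS101 to IDS120 (2707 and 3584). The median of the early transcription factors was 1.49 for the 10 highest against the 10 lowest cells, and the median of all genes measured within IDS101 to IDS120, which holds 3 high cells, was -0.50. List medians of at least 0.5 in size changed sign for astrocyte markers (0.13 by the mean over cells, 0.0861 in thinned cells, 0.23 with the deposited signal, 0.50 with cells ranked by mean log2 values), interferon genes (0.0742 with genes of any level), CA pyramidal markers (-0.17 for 10 against 10 cells, -0.30 within IDS1 to IDS24, -2.67 within IDS101 to IDS120), mossy cell markers (-1.27 within IDS74 to IDS95, -1.08 with cells labelled as failing), and, within IDS101 to IDS120, Id and helix-loop-helix genes (-0.81) and microglia markers (-0.32). Single genes with a log2 ratio of at least 1 changed sign for 10 against 10 cells (Egr3 1.44, Csrnp1 2.33, Dtd1 -0.0831), with the log2 ranking (Csrnp1 1.40, Notch2 0.58), within IDS1 to IDS24 (Elk1 -0.33, Ncoa2 2.92, Cpe 0.89), within IDS74 to IDS95 (Egr2 -1.77, Egr3 2.33) and within IDS101 to IDS120 (Klf4 -0.55, Arl4d -0.19, Trib1 -1.61, Dnajb5 -3.41, Dusp8 5.94, Hspa1a -0.9999, Hspa1b -0.88, Id2 -2.46). Below these sizes, 12 list medians, that of the activity-induced effectors (-0.12 with genes of any level) among them, and 12 named genes, Nr4a2, Homer1 and Bdnf among them, changed sign under at least 1 alternative. The alternatives within title ranges use fewer cells, and for the others the cause was not tested. Leaving out IDS107 or IDS21 was chosen after the data were seen. No paired analysis was possible because the cells are not labelled as pairs and no test was made.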

Other observations

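Of 19 measured Id and helix-loop-helix regulators, which set neuronal fate and growth, 12 were higher and 7 lower in high cells. The shares of all measured genes were 48.8% and 51.2%. At least 2-fold higher were 8 and at least 2-fold lower 3, against 21.6% and 22.7%. The median log2 ratio was 0.82 over all cells and -0.81 within IDS101 to IDS120. The 17 neuropeptide and granin genes had 6 higher and 11 lower members, against the same 48.8% and 51.2%, and a median of -0.31. Npas4 in the helix-loop-helix list and Nptx2 in the neuropeptide list are also counted among the activity genes above. The 22 genes of axon growth and immature neurons had 11 in each direction and a median of 0.03. The 17 circadian clock genes had 8 higher and 9 lower members, and both lists were close to the shares of all measured genes. Among markers of other neurons, the 9 measured for CA pyramidal cells had a median of 0.54, the 4 for interneurons -0.14 and the 3 for mossy cells 0.64. The CA pyramidal list includes Nr4a2, which is also counted as an early transcription factor. The 3 measured oligodendrocyte markers had a median of -0.60 and the 3 interferon-stimulated genes -1.71. None of the 13 endothelial and mural markers was measured, and of the nuclear long noncoding RNAs only Snhg11 was, with 1251 CPM in high cells and 672.2 CPM in low cells.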
